A study of Mus musculus with 4 samples.

Results

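The regions described here are short stretches of intergenic DNA, 1 to 10 kb upstream of a protein-coding gene, that the authors' comparison assigned to 70 µM choline in a map of H3K9ac. A region was taken when its midpoint lay in no annotated gene (GENCODE M21) and 1 to 10 kb upstream of the 5′-most start of the nearest protein-coding gene. The rule gave 2262 regions of the 45495 listed at 70 µM (4.97%, exact 95% interval 4.77 to 5.18), and of 45855 listed in all. They are called upstream regions here. They covered 0.404 Mb and belonged to 1828 genes, which is 8.33% of the 21938 protein-coding genes and 11.3% of the 16233 genes that have at least 200 bp of sequence the rule can reach.

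H3K9ac, acetylation of lysine 9 of histone H3, was mapped by ChIP-seq, the sequencing of DNA pulled down with an antibody to the mark. The cells were HT22, an immortalised line from mouse hippocampus. Cells were grown with 70 µM choline chloride (supplemented) or 5 µM choline chloride (control) for 48 h, in the same serum-containing medium, and gave 2 H3K9ac ChIP libraries and 2 input libraries. At most 1 ChIP library thus stood for each choline level, and the labels do not say which one, so that replicate error is unknown and no test between the levels was possible. The region names compare 5 with 70, in that order, and on this ground the second condition was taken to be 70 µM. Every direction given below depends on it. Only regions called different are in the list. A gene without a region may therefore carry H3K9ac at both levels alike, and the list cannot serve to check the cell type on the labels. Sequencing depth is not known here, and intervals are exact (Clopper-Pearson) 95% binomial intervals that cover counting error only.

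H3K9ac is laid down by acetyltransferases of the Gcn5 and PCAF family and removed by histone deacetylases, and it is found mainly at active promoters and, more weakly, at active enhancers. Enhancers are bound by transcription factors and act on promoters at a distance, and those a few kilobases from a start are often called proximal. Promoters of mammalian genes expressed in many tissues usually lie in CpG islands, whereas most enhancers do not. Whether an upstream region acts on the gene beside it was not measured here.

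Sequences of 6 upstream regions are printed because they stand for the extremes described below. Pnrc2 and Thbs2 had regions among the highest scores at genes that also had a region at the start, Dagla had the highest score at a gene without one, Srebf1 had the highest score among the lipid synthesis genes, and Klf9 and Nr4a1 had CpG-dense regions at genes induced by signals. The sequences are the plus strand of RefSeq's GRCm38.p6, the build called mm10, 5′ to 3′, with CpG sites in capitals.
Pnrc2, chr4:135876574-135876775: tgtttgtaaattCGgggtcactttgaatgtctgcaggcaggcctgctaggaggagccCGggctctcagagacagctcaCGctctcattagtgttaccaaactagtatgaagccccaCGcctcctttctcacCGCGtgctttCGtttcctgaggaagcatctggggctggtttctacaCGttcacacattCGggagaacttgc
Thbs2, chr17:14700785-14700987: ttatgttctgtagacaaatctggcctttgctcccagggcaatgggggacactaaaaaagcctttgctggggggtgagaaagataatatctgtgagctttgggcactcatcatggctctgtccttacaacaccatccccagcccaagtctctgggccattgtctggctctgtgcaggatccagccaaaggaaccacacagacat
Dagla, chr19:10307069-10307260: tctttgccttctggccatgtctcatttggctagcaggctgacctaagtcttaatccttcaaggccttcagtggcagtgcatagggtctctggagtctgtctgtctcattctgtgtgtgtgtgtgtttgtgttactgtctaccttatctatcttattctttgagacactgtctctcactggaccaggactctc
Srebf1, chr11:60226007-60226228: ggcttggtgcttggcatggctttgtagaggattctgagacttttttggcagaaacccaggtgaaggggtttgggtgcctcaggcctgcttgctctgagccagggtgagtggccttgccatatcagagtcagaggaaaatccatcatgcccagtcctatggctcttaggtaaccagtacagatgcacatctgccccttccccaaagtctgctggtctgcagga
Klf9, chr19:23136157-23136309: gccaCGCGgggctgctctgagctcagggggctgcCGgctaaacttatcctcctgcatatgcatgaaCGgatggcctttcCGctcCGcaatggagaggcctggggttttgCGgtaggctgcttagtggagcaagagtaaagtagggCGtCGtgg
Nr4a1, chr15:101246533-101246690: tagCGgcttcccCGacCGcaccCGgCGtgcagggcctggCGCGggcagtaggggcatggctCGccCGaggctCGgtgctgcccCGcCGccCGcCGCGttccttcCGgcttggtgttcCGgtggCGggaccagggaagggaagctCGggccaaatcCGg
The Pnrc2 region held 9 CpG sites in 202 bp and the Nr4a1 region 20 in 158 bp, whereas the Thbs2, Dagla and Srebf1 regions held 0.

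Upstream regions were denser than those in other intergenic DNA. There were 20.3 upstream regions per Mb of sequence that the rule can reach (111 Mb), against 7.81 per Mb in the rest of the intergenic genome (10878 regions over 1393 Mb). Density was highest next to the excluded first kilobase, with 31.5 regions per Mb at 1 to 2 kb, 22.9 at 2 to 3 kb and 20.4 at 3 to 4 kb. Beyond 4 kb it lay between 15.7 and 18.5 per Mb, with no further steady fall. The first of these 1 kb steps held 472 regions, 20.9% of all. The share of regions that met the rule was 4.97% at 70 µM and 3.61% at 5 µM (13 of 360, 1.94 to 6.10), and the interval of the 5 µM share includes the 70 µM share.

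**Figure D1:**
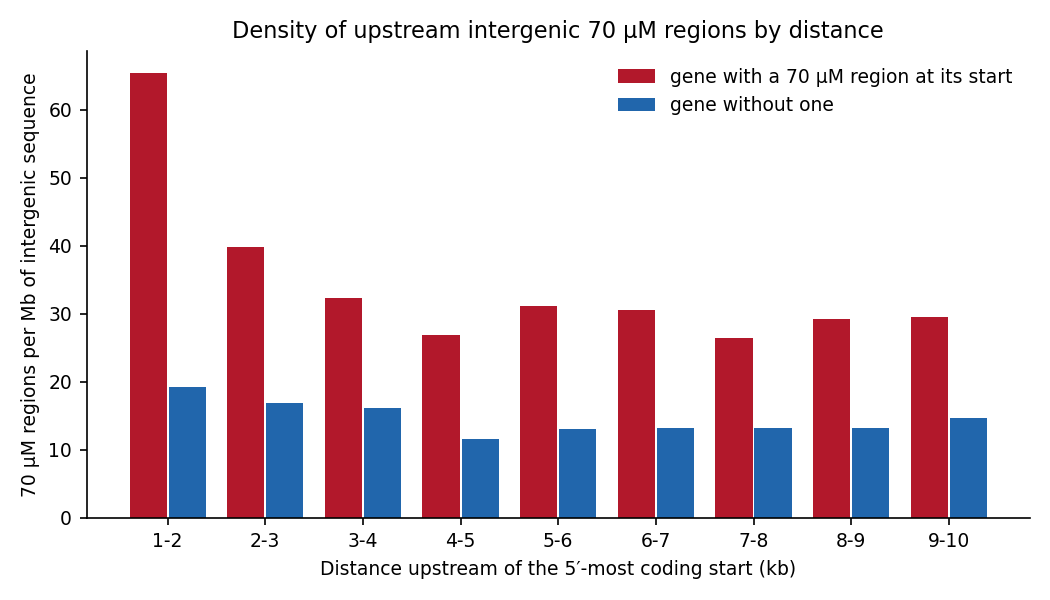
Upstream 70 µM regions per Mb of intergenic sequence (y axis) by distance from the 5′-most coding start in 1 kb steps (x axis), for genes with a 70 µM region at the start (red, left bar) and genes without one (blue, right bar). At 1 to 2 kb the bars stand at 65.4 and 19.3 per Mb, and the red bar is higher in each step.

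Genes with an upstream region often had a region at the start as well. A region at the start means a 70 µM region, other than an upstream region, that overlaps the 1 kb either side of the 5′-most start. Of the 1828 genes with an upstream region, 813 had one (44.5%, 42.2 to 46.8) and 1015 had none. Of the 14405 genes with reachable sequence and no upstream region, 3639 had one (25.3%, 24.6 to 26.0), and of all protein-coding genes 32.1%. Counted the other way, 18.3% of the 4452 reachable genes with a region at the start had an upstream region (17.1 to 19.4), against 8.62% of the 11781 without (8.11 to 9.14). For 28 genes the only 70 µM region that reached into the start window was an upstream region itself, and these count as genes without. With only the 70 µM regions at or above the median score of the authors' deposited table, 11.1% of genes with an upstream region had one at the start, against 6.56% of reachable genes with no upstream region.

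The difference was present among genes with like amounts of reachable sequence. With 200 to 3000 bp of it, 7.56% of genes with a region at the start had an upstream region (5.87 to 9.55), against 4.33% of genes without (3.44 to 5.37). With 3000 to 6000 bp the shares were 14.2% with and 9.21% without a region at the start, and with 6000 bp or more they were 22.4% and 9.44%. The intervals of the pair did not overlap in any of the 3 length classes.

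It was also present within each kind of start. A start was called CpG-rich when its window had at least 55% G and C and a ratio of observed to expected CpG of at least 0.6. Among genes with CpG-rich starts, 19.0% of those with a region at the start had an upstream region (535 of 2822), against 12.2% of those without (353 of 2887). Among genes with other starts the shares were 17.1% (278 of 1630) with a region at the start and 7.44% (662 of 8894) without.

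Both sets of genes had their densest upstream regions near the start. At genes with a region at the start there were 65.4 upstream regions per Mb at 1 to 2 kb, 39.9 at 2 to 3 kb and between 26.4 and 32.3 beyond, 35.7 over the whole span. At genes without one the density was 19.3 per Mb at 1 to 2 kb and 14.8 over the whole span. The first step held 24.8% of the upstream regions at genes with a region at the start (22.2 to 27.5), against 17.5% at genes without (15.4 to 19.7). The median distance was 3974 bp with and 4521 bp without a region at the start.

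Most genes had 1 upstream region. There were 1503 genes with 1, 247 with 2, 58 with 3, 14 with 4, 5 with 5 and 1 with 10. Of the 78 genes with 3 or more, 65.4% had a region at the start (53.8 to 75.8), against 43.0% of the genes with 1 (40.5 to 45.5). Regions of 1 gene share its surroundings and its chromosome and are not independent.

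Starts with a region were more often CpG-rich, whether or not the gene had an upstream region. Among genes with an upstream region, 65.8% of starts with a region and 34.8% of starts without one were CpG-rich, and among reachable genes with no upstream region 62.8% and 23.5%. Olfactory and vomeronasal receptor genes, which are normally expressed in sensory neurons of the nose, were 0 of the 813 genes with both regions and 30 of the 1015 with an upstream region alone (2.96%). They were 5 of the 3639 genes with a region at the start alone (0.137%) and 1353 of the 10766 with neither (12.6%), so that their share among genes with an upstream region alone was below that among genes with neither. Of the 1015, 528 had a 70 µM region inside the gene (52.0%, 48.9 to 55.1), against 29.5% of the 10766 genes with no region upstream or at the start (28.6 to 30.3). A further start of the same gene, downstream of the 5′-most one, carried a region in 192 of the 1015 (18.9%). In 487 genes the upstream region was accompanied by no region at the start or inside the gene.

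The authors' deposited table gives each region a score, for which MACS2 bdgdiff normally writes a log10 likelihood ratio of the conditions. It was used only to describe and rank. Upstream regions had a median of 7.31 in the authors' deposited table (quartiles 4.54 and 15.7), with a range of 3.18 to 31.2. The same table gives a median of 4.78 for 70 µM regions within 1 kb of a coding start, 7.87 for intronic regions and 9.65 for the other intergenic regions. Upstream regions thus had a higher median score than those at starts and a lower one than the other intergenic regions. The latter exclude regions within 1 kb of a coding start and are not chosen by distance from genes. Upstream regions of genes with a region at the start had a median of 6.49 in the authors' deposited table, against 8.08 at genes without.

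Some exact scores were shared by many regions. One value of the authors' deposited table, 19.0, was held by 126 upstream regions (5.57%), against 0.613% of the regions at starts and 9.83% of the other intergenic regions. It was held by 3.81% of the upstream regions at genes with a region at the start, against 7.09% at genes without. Regions with a score shared by over 100 others were left out of the rankings below.

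Upstream regions had a median width of 167 bp (quartiles 142 and 195). The median was 188 bp at starts, 167 bp for intronic regions and 161 bp for the other intergenic regions. Only 91 upstream regions were wider than 300 bp (4.02%), against 14.2% of the regions at starts. The widest lay upstream of Lmna, the gene of lamin A and C of the nuclear envelope, of Bdkrb2, the bradykinin B2 receptor gene, and of Plxdc1, at 734, 698 and 661 bp. The Lmna region, at chr3:88512482-88513215, lay 2893 bp from the start. None of these 3 genes had a region at the start. The median gap to the next 70 µM region was 3885 bp for upstream regions, against 901 bp for regions at starts and 13840 bp for other intergenic regions.

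In base composition the upstream regions lay between regions at starts and the surrounding sequence, and nearer to the surrounding sequence in CpG. In 200 bp windows their median G and C content was 48.5%, against 57% at starts and 43.5% over all sequence the rule can reach. The median ratio of observed to expected CpG was 0.179, against 0.599 at starts and 0.145 over the sequence. Only 44 upstream regions were CpG-rich (1.95%), against 40.2% of the regions at starts and 0.320% of the sequence. The printed Klf9 and Nr4a1 regions are among these 44, and the CpG-free Thbs2, Dagla and Srebf1 regions stand for 16.0% of the upstream windows. Repeats filled over 50% of the window in 22.4% of upstream regions, against 3.64% at starts and 35.1% of the sequence.

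**Figure D2:**
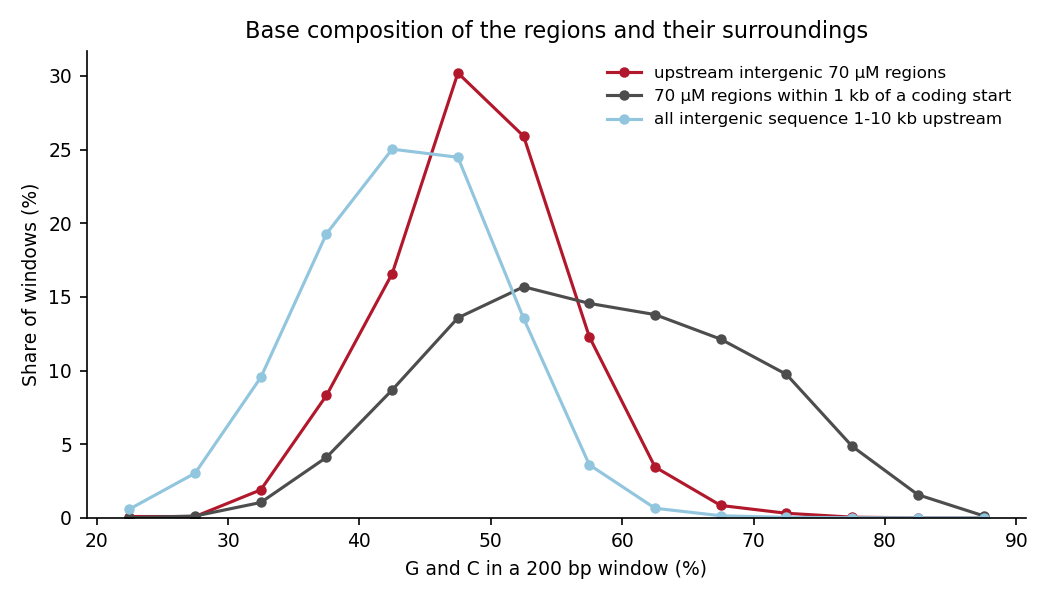
Share of 200 bp windows (y axis, percent) by G and C content in steps of 5 percentage points (x axis), for upstream 70 µM regions (red), 70 µM regions within 1 kb of a coding start (grey) and all intergenic sequence 1 to 10 kb upstream (light blue). The medians are 48.5%, 57% and 43.5%.

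Short motifs were searched as exact letters on both strands of each window. CCACCC, a core bound by Krüppel-like factors, was in 20.8% of upstream regions, against 12.1% of the sequence. GGGCGG, the GC box of Sp and Krüppel-like factors, was in 4.64% of upstream regions, against 2.10% of the sequence and 27.4% of the regions at starts. CAGCTG, an E-box, was in 11.5% of upstream regions, against 7.60% of the sequence. These 3 motifs are rich in G and C, and in windows of like composition the shares were closer. At 50 to 55% G and C, CCACCC was in 25.4% of upstream regions (21.9 to 29.2) and in 23.0% of the sequence, and CAGCTG in 13.1% (10.5 to 16.1) and 13.0%. At 40 to 45%, CCACCC was in 13.3% of upstream regions (10.1 to 17.2), against 9.70% of the sequence, which lies below that interval.

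The other motifs gave a mixed picture. The AP-1 motif TGANTCA, bound by Fos and Jun proteins, was in 5.84% of upstream regions, against 5.89% of the sequence, and its form TGAGTCA in 3.76%, against 3.33%. GGAATG, the core of TEAD factors, was in 11.8%, against 10.8%, and TGTGGT, the RUNX core, in 15.1% of both. CCAAT, bound by NFY, was in 23.1% of upstream regions, against 28.5% of the sequence, and AGATAA, which GATA factors bind, in 9.28%, against 12.1%. At 45 to 50% G and C, CCAAT was in 25.9% of upstream regions (22.7 to 29.4), and the 28.6% of the sequence lies within that interval. At 50 to 55% it was in 18.8% of upstream regions (15.7 to 22.2), against 24.7% of the sequence, which lies above the interval. AGATAA was in 16% of upstream regions at 40 to 45% G and C (12.4 to 20.1), against 12.6% of the sequence. At 45 to 50% AGATAA was in 9.08% of upstream regions and 9.09% of the sequence, so its lower overall share was not seen in windows of these compositions. TGACGT, bound by CREB, was in 1.68% of upstream regions, against 1.46% of the sequence. CCGGAAG, an ETS motif, was in 1.15%, against 0.613%, and CACGTG, another E-box, in 2.48%, against 2.12%. The glucocorticoid response element, searched as its palindromic consensus with free positions, was in 4 upstream regions (0.177%), against 0.315% of the sequence. A match describes letters only, and binding was not measured.

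The annotation around the regions was mixed. Within 1 kb of the start of a non-coding gene or pseudogene lay 64 upstream regions (2.83%), against 2.36% of the reachable positions. The gene on the far side pointed away from the region in 943 cases (41.7%), and in 477 (21.1%) that gene was protein-coding. Another annotated gene lay between the region and its coding start in 195 cases (8.62%). Among genes named in this text, these include regions of Bdkrb2, Kif21b, Klf9, Mex3a, Pdgfc, Smad7, Tbc1d22a and Tspoap1. The share over the reachable positions was not worked out for the counts of far-side and intervening genes or the RefSeq counts below. Whether they differ from it is unknown. RefSeq, another annotation, placed 401 upstream regions inside a gene (17.7%) and 192 within 1 kb of a transcript start of any kind (8.49%). With only the curated RefSeq starts the count was 34, so most of the 192 lay near other RefSeq starts alone. A RefSeq start of the same gene lay within 1 kb of 119 upstream regions (5.26%). RefSeq left 2025 (89.5%) more than 1 kb from any start in either annotation.

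The genes with the most upstream regions were a mixed group. Below the 6 genes with 5 or more, 14 genes tied at 4, and the 4 of them with the largest summed width are described. Tnrc18, which encodes a large nuclear protein, had 10 regions between 1307 and 6936 bp upstream, at chr5:142818871-142824735, with scores of 3.65 to 7.55 in the authors' deposited table, and none at the start. RefSeq draws this gene longer, and 9 of the 10 regions lie inside it there. All but those at 3077, 3528 and 3880 bp also lie within 1 kb of a RefSeq start of Tnrc18. Mex3a, the gene of an RNA-binding protein, had 5 regions, with 3 wide ones (308, 385 and 511 bp) between 1080 and 2625 bp upstream and 1 region at the start. The highest score of the 5 in the authors' deposited table, 17.0, belonged to a region 7779 bp upstream.

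Klf9, a Krüppel-like factor gene induced by glucocorticoid and thyroid hormones, had 5 regions and 1 at the start. They lay 1788, 4460, 4993, 6452 and 7388 bp upstream, and their scores in the authors' deposited table ran from 3.51 to 5.13, all below the median of the upstream regions. Another annotated gene lay between the Klf9 start and the regions at 6452 and 7388 bp. Atg101, which encodes a partner of the ULK1 kinase complex that starts autophagy, also had 5, and none at the start. Of its 5 scores in the authors' deposited table, the lowest was 3.40 and the others ran from 11.3 to 20.2. Birc5, the gene of survivin, and Tbc1d22a had 5 each with 2 regions at the start, whereas Slc2a1, the gene of the glucose transporter GLUT1, and Arf3, a small GTPase gene, had 4 each with 1. Akna had 4 with 1 region at the start, and all 4 lie inside the gene as RefSeq draws it. Olfr223, an olfactory receptor gene, had 4 and none at the start.

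**Figure D3:**
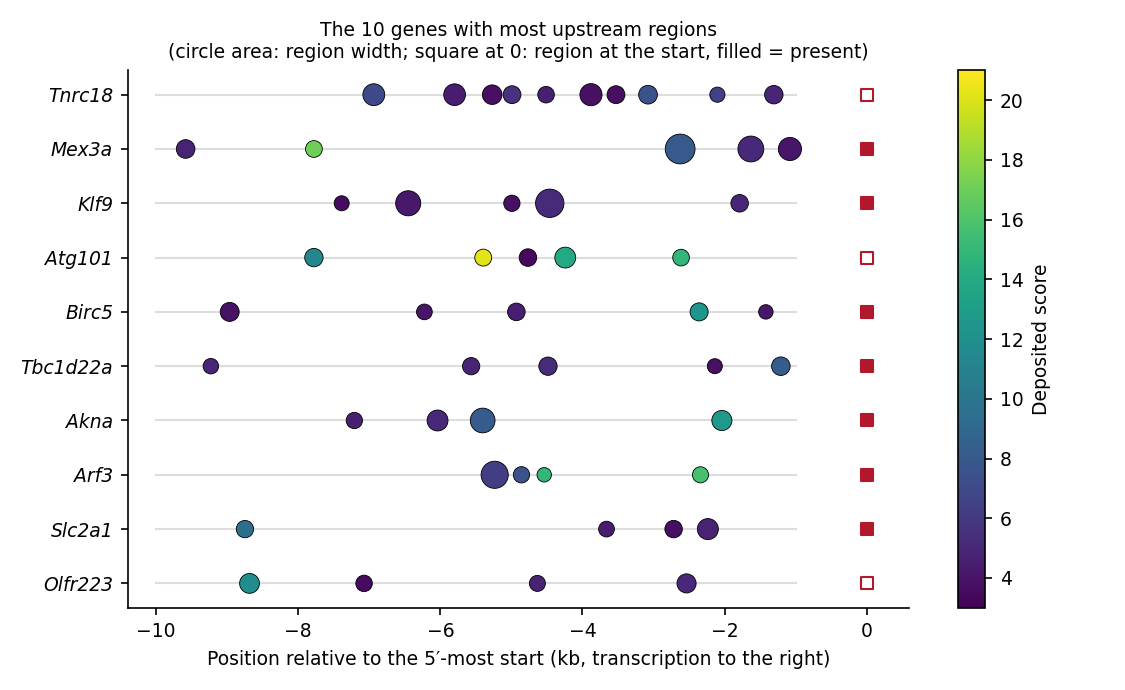
Position of each upstream region relative to the 5′-most start (x axis, kb) for 10 genes with most upstream regions (rows; the last 4 are those of greatest summed width among 14 genes tied at 4 regions), with circle area for width and colour for the deposited score. Filled squares at 0 mark genes with a 70 µM region at the start. Tnrc18 has 10 circles and an open square, and Klf9 has 5 circles and a filled one.

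The highest-scoring upstream regions lay at genes of many kinds. At genes with a region at the start the authors' deposited table had its highest upstream score, 31.2, 2825 bp upstream of Pnrc2, which encodes a nuclear receptor coactivator that also takes part in mRNA decay. Next in that table came Gm17651 (30.4), Pofut2, an O-fucosyltransferase gene (28.8), Ist1, an ESCRT-III gene (28.2), Skil, which encodes the SMAD corepressor SnoN (27.6), and Rpl5, a ribosomal protein gene (27.5). Bcdin3d and Thbs2 closed this group of 8 at 26.6 and 26.5. The Thbs2 region, printed above, lay 6651 bp upstream of the start and was 1 of 4 there.

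At genes without a region at the start the highest upstream score of the authors' deposited table was 29.0, 2288 bp upstream of Dagla, the gene of the diacylglycerol lipase that makes the endocannabinoid 2-arachidonoylglycerol. Inside the gene Dagla had 13 regions at 70 µM. Casp6, the gene of an effector caspase, followed in that table at 28.3, and Oca2, a pigmentation gene, at 28.0, with 0 and 1 regions inside the gene. Cltrn (27.9), Tspoap1 (27.5), Cldn5, a tight junction gene of endothelium (27.2), Mt4, a metallothionein gene of squamous epithelium (26.7), and Clec4a2, a lectin gene of myeloid cells (26.6), completed the group of 8. Of these, Cltrn and Tspoap1 had 1 region each at 70 µM inside the gene, and Cldn5, Mt4 and Clec4a2 had 0.

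Gene lists, 20 of them with 541 names in all, were read for upstream regions, and 76 list genes had one. The shares below are set beside the 8.33% of all protein-coding genes, with no test. Both also count genes that the rule cannot reach, and lists differ in this. Reachable were 14 of 28 forebrain genes, 15 of 29 oxidative phosphorylation genes, 20 of 32 choline and one-carbon genes and 24 of 27 immediate early genes. Among all protein-coding genes 16233 of 21938 were reachable. The shares rest on few genes. When regions that score below the median were left out, the actin and glucocorticoid lists each held 3 genes with an upstream region in place of 6, the secreted factors 2 in place of 6, the cell cycle genes 3 in place of 5 and the lipid synthesis genes 1 in place of 4. In the same setting the ribosomal list held 2 in place of 4, the Wnt list 1 in place of 3, and the choline and one-carbon list 0 in place of 2. Coordinates are those of mm10, counted from 1. The AP-1 and immediate early genes, which encode factors induced within minutes by growth signals and activity, had the largest share, 11 of 27 genes (40.7%). Of the 27, 21 had a region at the start (77.8%), against 32.1% of all genes.

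Among the 11 immediate early genes, 9 had a region at the start too. Junb, an AP-1 subunit gene, had upstream regions at 1087 and 4046 bp, with scores of 3.92 and 4.68 in the authors' deposited table. Within 10 kb of Junb lay 1 region assigned to 5 µM as well. Ier3, a stress-response gene, had upstream regions at 8238 and 8628 bp (5.56 and 6.57). Nr4a1, the gene of the orphan nuclear receptor Nur77, had them at 7657 and 9573 bp (4.31 and 4.50). The other genes with both were Dusp6, Fosb, Fosl1, Ier5, Jund and Klf6, with 1 upstream region each and scores from 3.65 to 19.2 in that table. Fos, the founding AP-1 gene, and Arc, a synaptic plasticity gene, had 1 upstream region each and none at the start. The Fos region, at chr12:85472220-85472473, lay 1543 bp upstream and scored 7.03 there, and the Arc region, at chr15:74680713-74680910, lay 8242 bp upstream and scored 13.4. The median score over the 14 upstream regions of the list was 5.07 in that table, against 7.31 over all upstream regions. The list held 4 genes with an upstream region when the distance was limited to 1 to 5 kb, and also 4 when regions below the median score were left out.

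**Figure D4:**
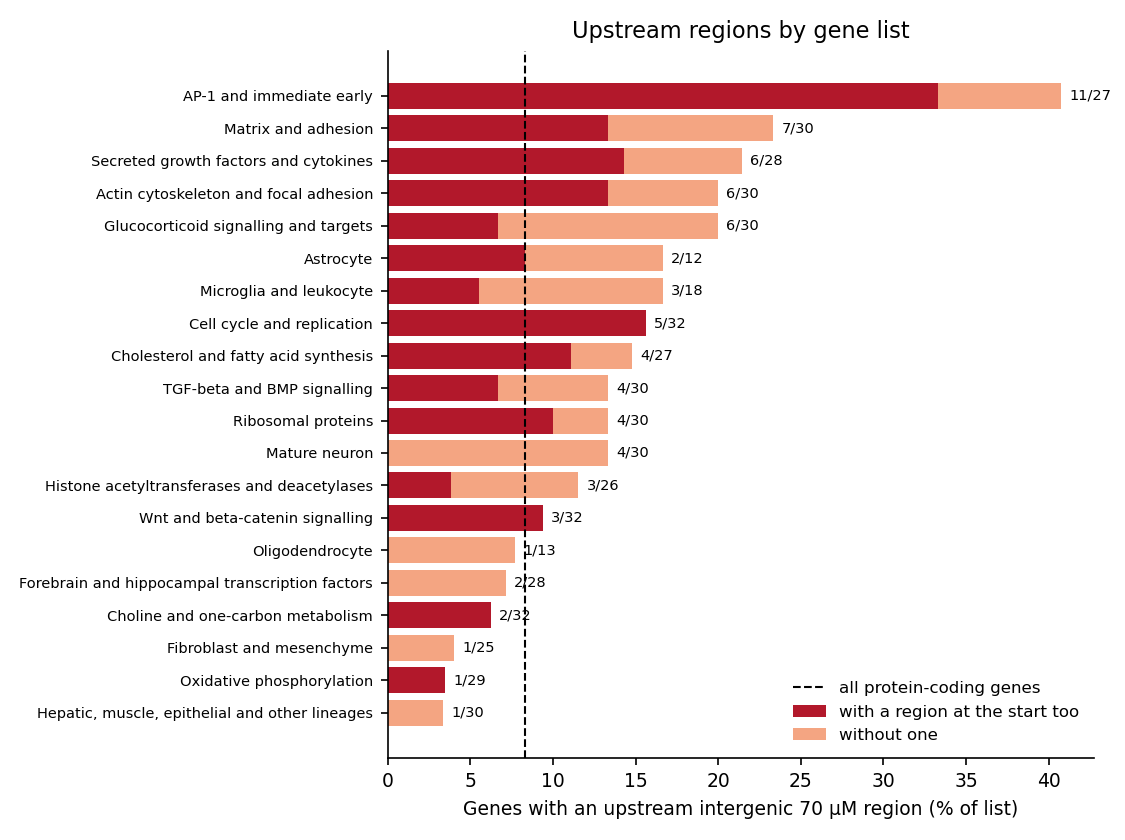
Share of the genes in each list with an upstream 70 µM region (x axis, percent of the list), split into genes with a region at the start too (dark) and without one (light), with counts at the bar ends. The dashed line is all protein-coding genes (8.33%). The immediate early list stands at 40.7%. The mature neuron, forebrain, oligodendrocyte, fibroblast and other-lineage lists have light bars only.

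Genes of the extracellular matrix and of the cytoskeleton also had larger shares than all genes. Of 30 matrix and adhesion genes, 7 had an upstream region (23.3%), 4 with a region at the start and 3 without. Thbs2, the gene of thrombospondin 2, had 4, between 6651 and 8966 bp, with scores of 26.5, 19.8, 5.04 and 4.20 in the authors' deposited table and 1 region at the start. Sparc, which encodes a collagen-binding matrix protein, had 4 (3.68 to 17.5 in that table). Col1a1, the gene of the collagen I alpha 1 chain, had 3 (4.37 to 6.61). Both had no other region at the start, but the nearest Sparc region, centred 1047 bp upstream, reached into the 1 kb start window. Of 30 actin cytoskeleton and focal adhesion genes, 6 had one (20%). Myh9, the gene of non-muscle myosin IIA, and Actb, the beta-actin gene, had 3 each, and Lims1, an integrin adaptor gene, had 1. Of the 3 at Actb, 1 lies inside the gene as RefSeq draws it. Those at 1068 and 1727 bp lie within 1 kb of a RefSeq start of Actb.

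Among secreted growth factors and cytokines, 6 of 28 genes had an upstream region (21.4%), 4 of them with a region at the start. With distances of 1 to 5 kb this list held 1 such gene. Pdgfc, a platelet-derived growth factor gene, had 3 at 5443 to 8049 bp, the farthest of them scored 19.4 in the authors' deposited table. Csf1, the macrophage growth factor gene, had 2 and 2 regions at the start, and Gdnf, a neurotrophic factor gene, had 1 and 4. In the TGF-beta and BMP list the share was 4 of 30 (13.3%), and 2 genes were left at 1 to 5 kb. Its members were Id1, a target of BMP signals, with 3 upstream regions between 6409 and 6997 bp, Skil with 2, and Smad7, an inhibitor of the pathway, and Grem1, a BMP antagonist gene, with 1 each. The Wnt list had 3 of 32 (9.38%), Axin1, Fzd2 and Fzd7, each also with a region at the start, and held 8 genes at 1 to 20 kb. The 2 upstream regions at Axin1 lie inside the gene as RefSeq draws it.

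Of 30 glucocorticoid signalling and target genes, 6 had an upstream region (20%), and here only 2 had one at the start, Klf9 and the co-chaperone gene Stip1. Ddit4, an inhibitor of mTORC1 that glucocorticoids induce, had a region 3652 bp upstream, at chr10:59955379-59955592, which scored 16.9 in the authors' deposited table. Cebpd, a C/EBP factor gene, had one at 1564 bp, chr16:15885635-15885808 (16.5 in that table). Fkbp5, the glucocorticoid-induced co-chaperone of the receptor, had one at 1294 bp, chr17:28518728-28518913 (8.23). Per1, a clock gene, had one at 1097 bp, chr11:69093998-69094242 (6.08). These 4 genes had no other region at the 5′-most start, but the Per1 region itself reached into the 1 kb start window. The 4 upstream regions with the glucocorticoid response element belonged to Krtap3-3, Resp18, Sys1 and Trpm6, none of them in this list. The list holds only 10 of the 2262 upstream regions, so an overlap was unlikely in any case and nothing follows from its absence.

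Genes of choline use and one-carbon metabolism had upstream regions in 2 of 32 cases (6.25%), Mat2a and Cbs. Mat2a makes S-adenosylmethionine, and it had 2 upstream regions, at 1276 and 4013 bp, and 3 at the start. Cbs, which takes homocysteine out of the methionine cycle, had 1 at 3913 bp and 1 at the start. Their scores ran from 3.79 to 5.06 in the authors' deposited table. In the same list 17 of 32 genes had a region at the start (53.1%), against 32.1% of all genes.

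In lipid synthesis 4 of 27 genes had an upstream region (14.8%), and 2 at 1 to 5 kb or without the 2 commonest scores. Srebf1 and Srebf2 encode the factors that drive fatty acid and cholesterol synthesis genes. The Srebf1 region, printed above, lay 3537 bp upstream and was scored 25.9 in the authors' deposited table, and the gene had none at its 5′-most start. Srebf2 had one at 1048 bp (6.11 in that table) and 2 at the start. Acly and Scd1 each had 1 upstream region, both with the second commonest exact score of that table, 4.01.

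Cell cycle and replication genes had upstream regions in 5 of 32 cases (15.6%), each with a region at the start as well. Cdkn1a and Cdkn1b, which encode the inhibitors p21 and p27, had them at 8956 and 3013 bp, scored 10.1 and 9.48 in the authors' deposited table, and the Cdkn1b region was 565 bp wide. Ccnd1, the cyclin D1 gene, had one at 4104 bp (7.70 in that table), and Cdk6 and Myc completed the list. Ribosomal protein genes had them in 4 of 30 cases (13.3%), with Rpl5 at 27.5 and Rpl14 at 21.7 in that table, and in 7 with distances of 500 bp to 10 kb. Oxidative phosphorylation had 1 of 29 (3.45%), Cyc1, although 21 of its 29 genes had a region at the start (72.4%).

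Histone acetyltransferases and deacetylases had 3 of 26 (11.5%), all of them class IIa deacetylases that shuttle between nucleus and cytoplasm. Hdac5 had a region 8138 bp upstream (18.6 in the authors' deposited table) and 2 at the start. Hdac7 (8707 bp, 14.7 in that table) and Hdac4 (7671 bp, 4.50) had none at the start. All 3 lay beyond 5 kb, and at 1 to 20 kb the list held 5 genes.

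Mature neuron genes had upstream regions without a region at the start. Of 30, 4 had an upstream region (13.3%), none of them with a region at the start, and 1 of the 30 had a region at the start at all (3.33%). They were Rbfox3, which encodes the neuronal nuclear protein NeuN, Snap25, a synaptic vesicle fusion gene, and the neurofilament genes Nefh and Nefm. Of their 4 scores 3 were shared by many regions of the authors' deposited table, 19.0 at Rbfox3 and Snap25 and 4.01 at Nefm, and Nefh had 10.5. Without the 2 commonest scores the list held 1 gene with an upstream region. The next 70 µM region was 38255 bp from the one at Rbfox3 and 32197 bp from the one at Snap25. Of 28 forebrain and hippocampal transcription factor genes, Cux2 and Neurod2 had one (7.14%), at 23.2 and 20.2 in that table and none at the start.

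Among markers of other cell types the counts were small. Astrocyte genes had 2 of 12 (16.7%), Aldh1l1 and Slc1a3, and microglia and leukocyte genes 3 of 18 (16.7%). Oligodendrocyte genes had 1 of 13 (7.69%), Mog, and fibroblast genes 1 of 25 (4%), Dcn. The list of hepatic, muscle, epithelial and other lineages had 1 of 30 (3.33%), Krt14. Of the genes named here, Slc1a3 had a region at the start and Aldh1l1, Mog, Dcn and Krt14 had none.

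Upstream regions were unevenly spread over chromosomes. Chromosome 15 had 56.7 per Mb of reachable sequence (225 regions), chromosome 11 37.3 (274) and chromosome 19 34.2 (119), against 20.3 over all. Chromosome 14 had 6.41 and chromosome X 7.56. On chromosome 15, 27.4% of reachable genes had an upstream region. All 70 µM regions were also densest on chromosomes 11 and 15, with 37.3 and 36.9 per Mb of chromosome. Of the genes named above, Nr4a1, Arc, Atg101, Tbc1d22a, Arf3, Bcdin3d, Myh9, Srebf2, Gdnf, Hdac7, Cyc1, Slc1a3 and Myc lie on chromosome 15.

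**Figure D5:**
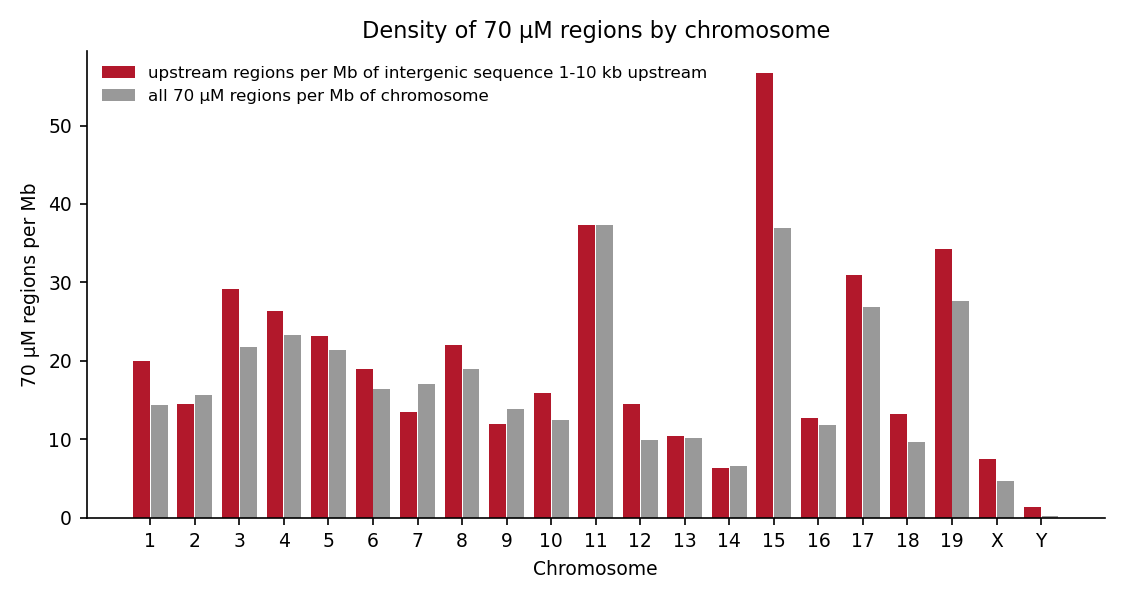
Upstream 70 µM regions per Mb of intergenic sequence 1 to 10 kb upstream (red, left bar) and all 70 µM regions per Mb of chromosome (grey, right bar) for each chromosome (x axis). Chromosome 15 stands highest in upstream regions at 56.7 per Mb, and chromosomes 11 and 15 stand highest in all regions.

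The regions nearest the bounds of the rule, inside and outside, all scored below the median of the upstream regions. Just inside 1 kb lay the regions of Mlec and Memo1, both 1000 bp upstream, with scores of 3.58 and 4.26 in the authors' deposited table. Just outside lay those of Dgcr6 (997 bp, 5.44 in that table) and Tatdn2 (998 bp, 4.66). Just inside 10 kb lay those of Prss27 (9964 bp) and Kif21b (9978 bp), at 4.48 and 5.63 in that table, and just outside those of Eepd1 (10003 bp) and Zdhhc22 (10008 bp), at 5.93 and 3.86.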

How the data were processed

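HT22 cells gave 2 H3K9ac ChIP and 2 input libraries. The tools named for mm10, per the submitters' processing notes, are Bowtie 1.0.0, CASAVA 1.8 and MACS2 without a version. Per the series' design text, peaks were called against input and differences between the choline levels with the bdgdiff function of MACS2. The deposited file lists regions unique to condition 1 or condition 2, each with a score set by the authors; its column has no name. For the scaling between libraries, the method was not given in the sources used here. If 1 ChIP library was deeper or less noisy, more regions would be assigned to its condition. Depth per library is unknown.

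Regions were placed against GENCODE M21 on chromosomes 1 to 19, X and Y by midpoint, with Python 3.11.15, pandas 2.3.3, numpy 2.4.6, scipy 1.17.1 and pysam 0.24.0, and the placing was tested on simulated data. Sequence and repeats were read from RefSeq's GRCm38.p6 in 200 bp windows centred on each midpoint, and, for comparison, in windows tiled over all sequence that meets the rule. Reachable genes have at least 200 bp of it. A region was at a start when it overlapped the 1000 bp either side by at least 1 bp. No test was made, since no value belongs to a single library.

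The regions and the 20 gene lists were chosen with earlier results of these data known, and 2 listed names (Ctgf, Cyr61) were not found in the annotation. Named were the 10 genes with most upstream regions (ties by summed width), the 8 highest-scoring regions with and the 8 without a region at the start, the 3 widest, up to 3 genes per list by number of regions and then score, and the 2 regions nearest each distance bound on either side. Scores shared by more than 100 regions were left out of rankings. Further list genes complete the counts of their lists, and they, the genes with the glucocorticoid motif and the printed sequences were chosen after their values were seen. Alternatives covered the distance bounds, the window at the start, gene spans, score and chromosomes; those without chromosomes 11 and 15 and with RefSeq gene spans were added after the data were seen. For 1 list the genes behind the count are not reported here.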

Additional observations from a re-analysis of the deposited data

How the results depend on the processing

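No paired analysis was possible because no value in the list belongs to a single library. With distances of 1 to 5 kb there were 1279 upstream regions, with 1 to 20 kb 3471, with regions at or above the median score 1216, and the 5 µM regions gave 13. The share of reachable genes with an upstream region (11.3%) was then 7.08%, 15.3%, 6.89% and 0.0801%, and 13.7% with 500 bp to 10 kb, 12.3% with protein-coding gene spans only, 10.2% without the 2 commonest scores and 10.4% with RefSeq gene spans. The share of genes with an upstream region that had one at the start (44.5%) was 46.9% at 1 to 5 kb, 41.9% at 1 to 20 kb and 11.1% above the median score. It was 32.8% with a start window of 500 bp, 54.4% with 2500 bp and 54.98% at any annotated start, against 18.6%, 30.2% and 31.7% of genes with no upstream region. The share among genes with no upstream region (25.3%) was 23.2% with 500 bp to 10 kb, 6.56% above the median score, 26.2% on autosomes, 24.5% by midpoint and 24.1% without chromosomes 11 and 15. In each of these settings it stayed below the share among genes with an upstream region. Above the median score the share at 1 to 2 kb was 17.8%, the median score 14.7, the CpG ratio 0.166 and the repeat share 20.5%. The median width was 170 bp without the 2 commonest scores, and CCACCC was in 18.6% of regions when the regions themselves were searched. The 76 list genes became 46 at 1 to 5 kb and 38 above the median score. Of the counts for single lists, 33 moved by more than 1.5 times and 67 did not. The other 52 values for the main results did not move by more than counting error or, for counts, 1.5 times. The cause was not tested. The unknown depth limits what the absence of a region means.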
